A study of Mus musculus with 2 samples.

Results

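The Wnt pathway genes described here are 41 mouse genes that encode Wnt ligands, receptors, transducers, transcription factors, antagonists and feedback targets of the pathway. They were taken from a fixed list of symbols and matched to array probes through the RefSeq accession that the array design gives for each probe, out of 20660 genes named in this way. All 41 had at least 1 probe, 55 probes in all among 55681 non-control probes.

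RNA of lung epithelial cells was hybridised to Agilent 1-colour mouse arrays, and each of the groups, Mob1DKO and wild type (WT), holds 1 array. Mice of both groups were of strain C57BL/6 and 10 weeks old, per the labels. Mob1DKO is not explained in the labels, and is taken here, from what is known of the mouse line, to mean that Mob1a and Mob1b are both lost. Their products are adaptors that switch on LATS kinases in Hippo signalling. The sources used here do not give the driver and time of the deletion, the sex and number of the animals or the way the cells were isolated.

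Wnt ligands are secreted lipid-modified proteins that bind Frizzled receptors together with the co-receptors LRP5 and LRP6. Without ligand, a destruction complex of AXIN, APC and GSK3 marks beta-catenin for degradation, whereas with ligand beta-catenin accumulates and acts in the nucleus through TCF and LEF factors. In the adult lung the pathway is known for maintaining a subset of alveolar type 2 cells that express Axin2, and the Hippo effectors YAP and TAZ have been found in the destruction complex.

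No measured Wnt pathway gene differed 2-fold between the Mob1DKO array and the WT array. Of the 41 genes, 34 passed the scanner software's test for signal well above background on both arrays and 7 passed it on neither. The differences of the 34 ran from −0.80 (Sfrp2) to 0.92 (Axin2) on the log2 scale. Their median difference was 0.010, beside 0.024 for all 15099 genes measured on at least 1 array. The 4 measured secreted antagonists were all lower on the Mob1DKO array, by less than 2-fold, and both Naked cuticle feedback genes were higher. Of all 15099 genes, 7054 were lower and 8045 higher, so the signs of so few genes are no result about the pathway. The 2 probes for Axin2, the most widely used readout of beta-catenin signalling, differed in opposite directions. Here a level is the log2 signal minus that array's 75th percentile, a difference is Mob1DKO minus WT, and a gene was called when the difference reached 1 in size with both arrays well above background, or when a bound of 2-fold could be given with 1 array above it.

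With 1 array per group there were no replicates, so no p-value is given and precision is limited by the number of arrays. By the same rule, 1.93% of all measured genes were called higher and 2.54% lower, 4.46% in either direction, so the count of 0 among 34 is close to that share and is no result about the pathway. Differences of at least 0.5 in size were seen for 7 of 34 Wnt pathway genes (20.6%) and for 18.8% of all measured genes. The interquartile range of the Wnt pathway differences ran from −0.31 to 0.27, beside −0.18 to 0.22 for all genes.

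The technical error of a difference was taken from non-control probes printed at 10 spots. Its SD for a single spot was 0.48 where the mean level was below −2, 0.25 from −2 to 0, 0.11 from 0 to 2 and 0.067 above 2. It comes from the spread of spots within each array. It therefore leaves out labelling, hybridisation and scaling, as well as differences between animals and between RNA preparations. The share of all measured genes that differed by more than 2 of these SDs was 36.0%. Among the Wnt pathway genes it was 22 of 34 (64.7%), which describes these 2 arrays and not the genotypes. The 2 shares are not matched for level, on which the SD depends. Of the 15099 genes, 1233 were well above background on 1 array only, beside 0 of the 34.

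The signal's 75th percentile was 291 in Mob1DKO cells and 155 in WT cells, 58.6% of probes in Mob1DKO cells and 53.1% in WT cells were well above background, and no spot was saturated. Mob1b was lower in Mob1DKO cells, 4.0-fold at its brighter probe and 6.48-fold at the other, while the single Mob1a probe differed by 0.07 (technical SD 0.48), and where it lies relative to a deleted part is unknown. Xist, expressed in females, differed by −2.29 and the Y-linked Eif2s3y was called higher, so the sex of the mice and the genotype cannot be told apart in any value below. Epithelial genes were present as the label says: all 12 shared epithelial markers were well above background on both arrays with a median difference of 0.0065, none was called, and Epcam and Cdh1 differed by 0.18 and 0.10. Markers of some single epithelial cell types did differ. All 7 measured goblet markers were called lower (median difference −1.64, Clca1 −5.90), as were 3 of 6 basal markers (median −1.06, Krt5 −2.89) and 1 of 4 measured club markers (median −0.72). None of the 10 alveolar type 2, 8 measured alveolar type 1 and 7 ciliated markers was called, with median differences of −0.21, 0.19 and 0.049. Of the alveolar type 2 markers, 8 lay below 0, among them Abca3 (−0.90) and Sftpc (−0.78), and 2 above. The part of these cell types in the Wnt pathway values was not tested. Genes used as markers of other cells were also detected. All 14 fibroblast, smooth muscle and pericyte markers were measured, 13 of them on both arrays. Their levels ran from −2.79 to 5.89 in Mob1DKO cells and from −3.52 to 5.71 in WT cells. Of 9 pan-leukocyte markers, 4 were measured, and 5, among them Ptprc and Tyrobp, were not well above background. Which cells this RNA came from was not tested.

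**Figure D1:**
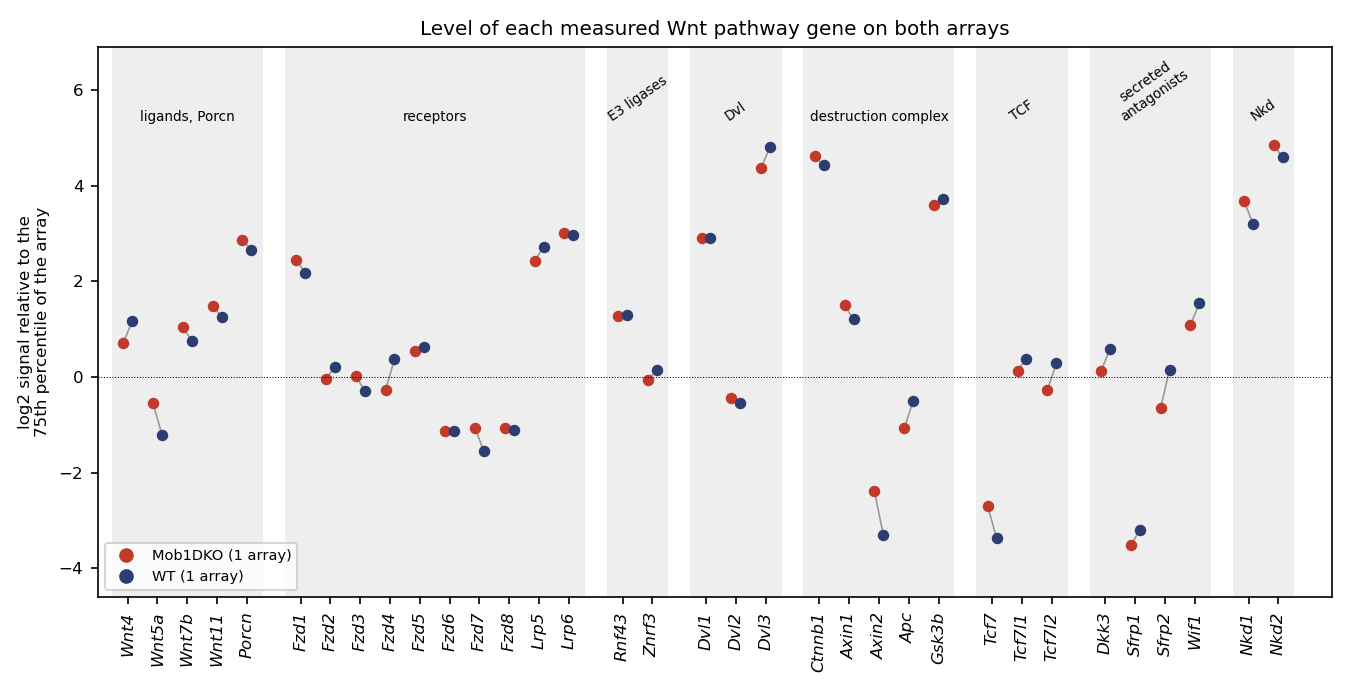
Level of the 34 measured Wnt pathway genes on each array, as log2 signal relative to the array's 75th percentile (y axis), with genes grouped by role (x axis), the Mob1DKO array in red to the left of the WT array in blue. Each point is 1 array, and the 2 points of every gene lie within 1 log2 unit. Heights compare the arrays within a gene, since probes differ in how strongly they bind.

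The sequences below are from RefSeq (GRCm38.p6) and were chosen because Axin2 and Nkd1, both known as feedback targets of beta-catenin, are the members most used as readouts of the pathway, and because the others hold the core letters bound by TCF and LEF factors. A promoter window of 300 bases, from 250 bases before the gene's start to 50 after it, was on hand for 26 of the 41 genes. The motif searched was CTTTGA, on both strands, which reads TCAAAG on the opposite strand. It was present for 5 of the 26 genes (19.2%) and for 18.2% of 27025 genes with such a window, so its share among the Wnt pathway genes was close to that of all genes. The whole windows of Axin2 (chr11:108920099-108920398, plus strand) and Nkd1 (chr8:88527383-88527682, plus strand) did not hold these letters, and the capitals in them mark the 50 bases after the start.
Axin2: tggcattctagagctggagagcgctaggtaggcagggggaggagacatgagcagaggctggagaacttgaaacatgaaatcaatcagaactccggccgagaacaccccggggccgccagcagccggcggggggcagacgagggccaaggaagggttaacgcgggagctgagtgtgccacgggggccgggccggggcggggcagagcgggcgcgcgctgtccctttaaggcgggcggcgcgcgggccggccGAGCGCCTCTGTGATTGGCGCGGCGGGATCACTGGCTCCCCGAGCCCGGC
Nkd1: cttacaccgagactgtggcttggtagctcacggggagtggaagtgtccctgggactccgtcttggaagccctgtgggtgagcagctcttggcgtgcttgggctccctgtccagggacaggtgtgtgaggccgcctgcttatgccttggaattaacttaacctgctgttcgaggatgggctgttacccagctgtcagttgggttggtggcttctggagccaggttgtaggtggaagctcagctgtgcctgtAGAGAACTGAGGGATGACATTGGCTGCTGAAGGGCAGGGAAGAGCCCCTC

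In the windows with a match, the capitals mark the 6 matching letters, and each stretch is written along the gene's own strand. The match lay 50 bases before the start of Wnt11 (chr7:98835042-98835087, plus strand), 242 before that of Fzd1 (chr5:4758433-4758466, minus strand) and 77 before that of Gsk3b (chr16:38088904-38088949, plus strand). Lef1 had 2 matches, of which the one 120 bases before a start is shown (chr3:131156154-131156199, plus strand), and Dkk1 had 2, of which the one 117 bases before the start is shown (chr19:30549588-30549633, minus strand). Wnt11, Fzd1 and Gsk3b differed by 0.23, 0.28 and −0.13, and Lef1 and Dkk1 were not well above background. A match is a run of letters and not a shown binding site.
Wnt11: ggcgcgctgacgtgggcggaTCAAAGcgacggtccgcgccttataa
Fzd1: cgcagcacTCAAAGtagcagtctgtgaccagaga
Gsk3b: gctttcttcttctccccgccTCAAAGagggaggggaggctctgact
Lef1: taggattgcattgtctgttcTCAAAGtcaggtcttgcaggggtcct
Dkk1: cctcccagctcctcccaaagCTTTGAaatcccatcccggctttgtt

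Among the measured ligands on the Wnt pathway list, taken by their brightest probe, Wnt5a differed most, and none was called. Wnt5a, a ligand known mainly for signalling without beta-catenin, was at −0.55 in Mob1DKO cells against −1.21 in WT cells, a difference of 0.66 (technical SD 0.25). Wnt7b, a ligand made by lung epithelium, was at 1.04 in Mob1DKO cells against 0.76 in WT cells, a difference of 0.28 (SD 0.11). Wnt11 was at 1.49 in Mob1DKO cells against 1.26 in WT cells, and Porcn, the acyltransferase that adds the lipid Wnt ligands need for secretion, was at 2.87 in Mob1DKO cells against 2.65 in WT cells, differences of 0.23 and 0.22. Of the measured ligands on the Wnt pathway list, which leaves out those of the second list below, Wnt4 alone lay below 0. Its brighter probe was at 0.71 in Mob1DKO cells against 1.16 in WT cells, a difference of −0.45 (SD 0.11), and its second probe was at −1.93 in Mob1DKO cells against −0.95 in WT cells, a difference of −0.98 (SD 0.25). Both Wnt4 probes thus leaned the same way, and the second lay just inside the 2-fold limit. Wnt3a and Wnt7a were not well above background on the 2 arrays.

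Wnt5a and several antagonists are also known from fibroblasts, so the mesenchymal markers are given beside them. Of the 14, 1 was called higher (Lum, by its bound) and 1 lower (Cspg4), 9 differed by less than 0 and 5 by more, and the median difference was −0.40. The list pools fibroblast with smooth muscle and pericyte genes, and its members differed in both directions. Acta2 and Tagln differed by −0.97 each, whereas Myh11 differed by 0.06. The collagen genes Col3a1, Col1a2 and Col1a1 differed by −0.67, −0.27 and 0.02. Tcf21 differed by −0.14, and Pdgfra and Dcn by 0.13 and 0.18. The summed level of the 14 was 6.87 in Mob1DKO cells and 7.09 in WT cells. The part of mesenchymal cells in the values of Wnt5a or the secreted antagonists was not tested. In RNA of a whole preparation, fewer cells of a type and less RNA per cell cannot be told apart.

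The Frizzled receptors went both ways, with Fzd4 the most different. Fzd4, the receptor also bound by norrin in endothelium, was at −0.26 in Mob1DKO cells against 0.37 in WT cells, a difference of −0.63 (SD 0.11). Among the 6 measured endothelial markers of 10, none was called, the median difference was −0.017, the summed level was 5.01 in Mob1DKO cells and 5.49 in WT cells, and Cdh5, Tek, Cldn5 and Emcn were not well above background. Their part in the Fzd4 difference was not tested.

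Fzd7 was at −1.06 in Mob1DKO cells against −1.56 in WT cells, a difference of 0.49 (SD 0.25), but its second probe, at −2.92 in Mob1DKO cells against −2.57 in WT cells, differed by −0.36 (SD 0.48). The Fzd7 probes therefore gave no common direction. Fzd1 differed by 0.28 (SD 0.067), at 2.46 in Mob1DKO cells against 2.18 in WT cells, and Fzd3 by 0.31 (SD 0.25), at 0.025 in Mob1DKO cells against −0.29 in WT cells. Fzd2 differed by −0.26 (SD 0.11), at −0.042 in Mob1DKO cells against 0.22 in WT cells, with a second probe not well above background. Fzd5, Fzd6 and Fzd8 differed by −0.090, 0.0080 and 0.049, each within 1 technical SD, and the second Fzd5 probe by −0.13.

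Of the co-receptors, Lrp6 was near 0 at this error and Lrp5 was not. Lrp6 was at 3.01 in Mob1DKO cells against 2.97 in WT cells, and its 2 probes differed by 0.038 and 0.051, a gap that 97.0% of genes with several measured probes equalled or exceeded. Lrp5 was at 2.43 in Mob1DKO cells against 2.72 in WT cells, a difference of −0.29 (SD 0.067). Under a model-based background correction Lrp6 differed by 0.33 and Lrp5 by −0.10, so this contrast depended on the processing.

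Receptor turnover genes were in part below detection. R-spondins bind Lgr4, Lgr5 and Lgr6 and thereby restrain Rnf43 and Znrf3, the ubiquitin ligases that remove Frizzled receptors from the membrane. Lgr4, Lgr5 and Lgr6 were not well above background on the 2 arrays, so they have no fold here. Rnf43 was at 1.28 in Mob1DKO cells against 1.30 in WT cells, a difference of −0.019 (SD 0.11), and Znrf3 was at −0.052 in Mob1DKO cells against 0.14 in WT cells, a difference of −0.19 (SD 0.11). Both ligases, themselves feedback targets of beta-catenin, lay within 2 technical SDs of 0.

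The Dishevelled proteins relay the signal from Frizzled to the destruction complex, and 1 of the 3 stood apart from 0. Dvl3 was at 4.38 in Mob1DKO cells against 4.81 in WT cells, a difference of −0.44 (SD 0.067). Dvl1 was at 2.91 in Mob1DKO cells against 2.90 in WT cells, and Dvl2 was at −0.43 in Mob1DKO cells against −0.55 in WT cells, with differences of 0.013 and 0.11 that lay within 1 technical SD.

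**Figure D2:**
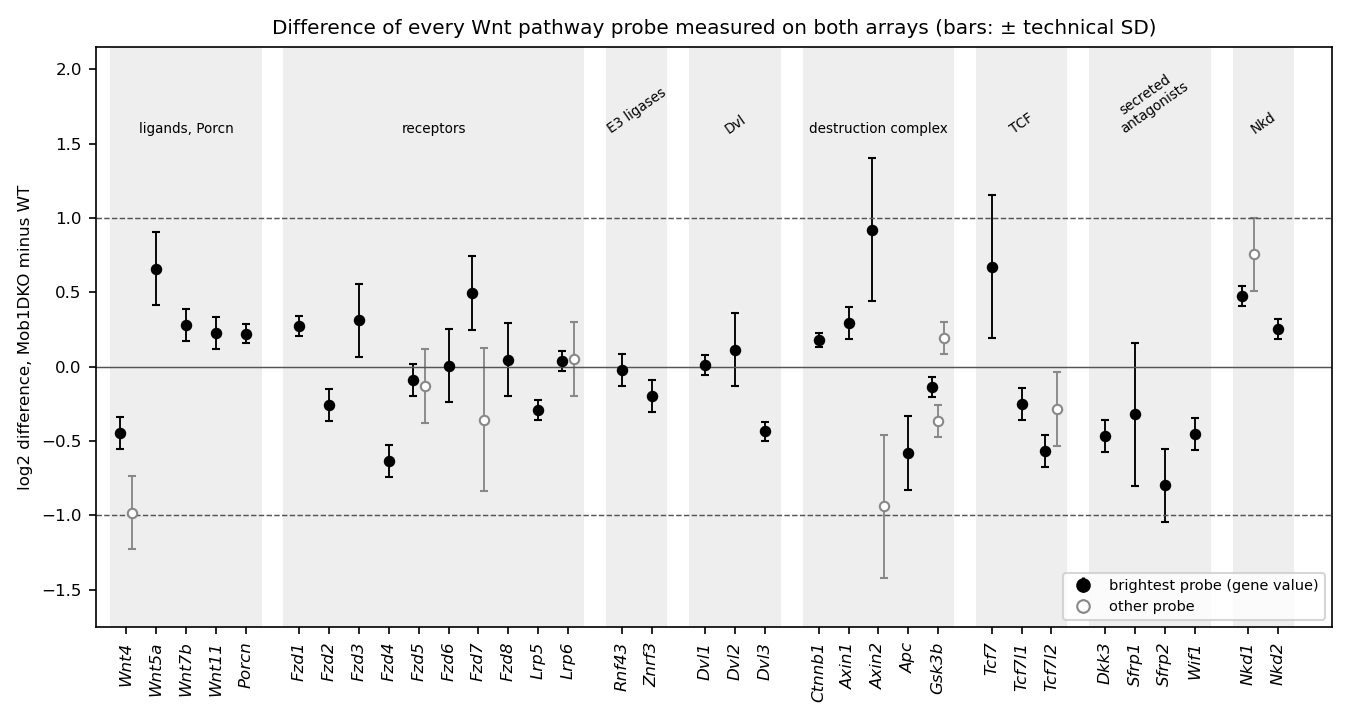
Log2 difference, Mob1DKO minus WT (y axis), of each Wnt pathway probe well above background on both arrays, with genes grouped by role (x axis). Filled points are the brightest probe of a gene, open points its other probes, bars 1 technical SD, and dashed lines the 2-fold limits. All 43 probes lie within those limits, the secreted antagonists lie below 0, and the Axin2 probes lie at 0.92 and −0.94.

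Beta-catenin and its destruction complex also stayed inside 2-fold. Ctnnb1, which encodes beta-catenin, was at 4.61 in Mob1DKO cells against 4.43 in WT cells, a difference of 0.18 (SD 0.047, from 2 spots). An array reads its mRNA, while the pathway acts on the stability of the protein. Axin1, the scaffold of the complex, was at 1.50 in Mob1DKO cells against 1.21 in WT cells, a difference of 0.29 (SD 0.11). Apc, a scaffold that binds beta-catenin, was at −1.08 in Mob1DKO cells against −0.49 in WT cells, a difference of −0.58 (SD 0.25), and its second probe was above background in Mob1DKO cells alone, with no bound above 1-fold. The kinase gene Gsk3b had 3 measured probes, which differed by −0.13, −0.37 and 0.19, on both sides of 0.

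Axin2 is induced by beta-catenin and then limits it, which is why it serves as a readout of the pathway. The brighter probe was at −2.38 in Mob1DKO cells against −3.31 in WT cells, a difference of 0.92. The other was at −3.56 in Mob1DKO cells against −2.62 in WT cells, a difference of −0.94. Both signals were faint, at 55.8 and 24.7 on the Mob1DKO array and 15.7 and 25.2 on the WT array, and each difference was under 2 technical SDs of 0.48. The gap of 1.86 between the probes was reached by 17 of 3406 genes that had 2 or more probes above background on each array (0.499%), where the median gap was 0.24 and the 90th percentile 0.75. Their mean difference was −0.0074, so these arrays gave Axin2 no direction. Of the 8 Wnt pathway genes in that set, 5 had differences of 1 sign.

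The TCF and LEF factors carry the signal to DNA, and the 3 measured ones differed in both directions. Tcf7l2 was at −0.28 in Mob1DKO cells against 0.29 in WT cells, a difference of −0.57 (SD 0.11), with a second probe at −0.28 (SD 0.25). Another Tcf7l2 probe was above background in Mob1DKO cells alone. It differed by 0.37 (SD 0.48), opposite in sign to the others but within 1 technical SD of 0. Tcf7l1 was at 0.13 in Mob1DKO cells against 0.38 in WT cells, a difference of −0.25 (SD 0.11). Tcf7 was faint, at −2.70 in Mob1DKO cells against −3.37 in WT cells, a difference of 0.67 (SD 0.48) that turned to −0.33 under a model-based background correction, and its second probe was not well above background. Tcf7 and Lef1 are also T cell genes. Of 11 T cell markers, 6 were measured and none was called, with a median difference of 0.16 and a summed level of 2.61 in Mob1DKO cells and 2.62 in WT cells, and Cd3d, Cd3g, Cd247, Cd8a and Il7r were not well above background. Lef1 itself did not pass the background test on either array.

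The 4 measured secreted antagonists shared a sign. Sfrp2, a decoy that binds Wnt ligands, was at −0.64 in Mob1DKO cells against 0.15 in WT cells, a difference of −0.80 (SD 0.25) or 1.74-fold lower. Wif1, another Wnt-binding protein, was at 1.09 in Mob1DKO cells against 1.54 in WT cells, a difference of −0.46 (SD 0.11). Dkk3, of the Dickkopf family, was at 0.12 in Mob1DKO cells against 0.58 in WT cells, a difference of −0.46 (SD 0.11). Sfrp1 was faint, at −3.52 in Mob1DKO cells against −3.20 in WT cells, and its difference of −0.32 was under 1 technical SD of 0.48. All 4 differences were below 0 and 3 exceeded 2 technical SDs, yet none was called. Of all 15099 measured genes, 7054 lay below 0 and 36.0% differed by more than 2 technical SDs. A shared sign of so few genes is no result about the pathway. Dkk1, which blocks the LRP co-receptors, was not well above background. The 4 stayed below 0 under each of the 7 other settings that can change their values, but the model-based background correction moved Wif1 to −0.21 and Sfrp1 to −0.67. The 14 mesenchymal markers ran from −1.36 to 1.22, 9 below 0 and 5 above.

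The intracellular feedback antagonists were both higher on the Mob1DKO array without being called. Nkd1, which binds Dishevelled and is induced by beta-catenin in several tissues, was at 3.68 in Mob1DKO cells against 3.20 in WT cells, a difference of 0.47 (SD 0.067) or 1.39-fold. Its second probe was at −0.80 in Mob1DKO cells against −1.56 in WT cells, a difference of 0.76 (SD 0.25). Nkd2 was at 4.84 in Mob1DKO cells against 4.59 in WT cells, a difference of 0.26 (SD 0.067), and its second probe was not well above background. The Nkd1 difference lay 7.13 technical SDs from 0, the most of any Wnt pathway gene, and its 2 probes had the same sign.

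**Figure D3:**
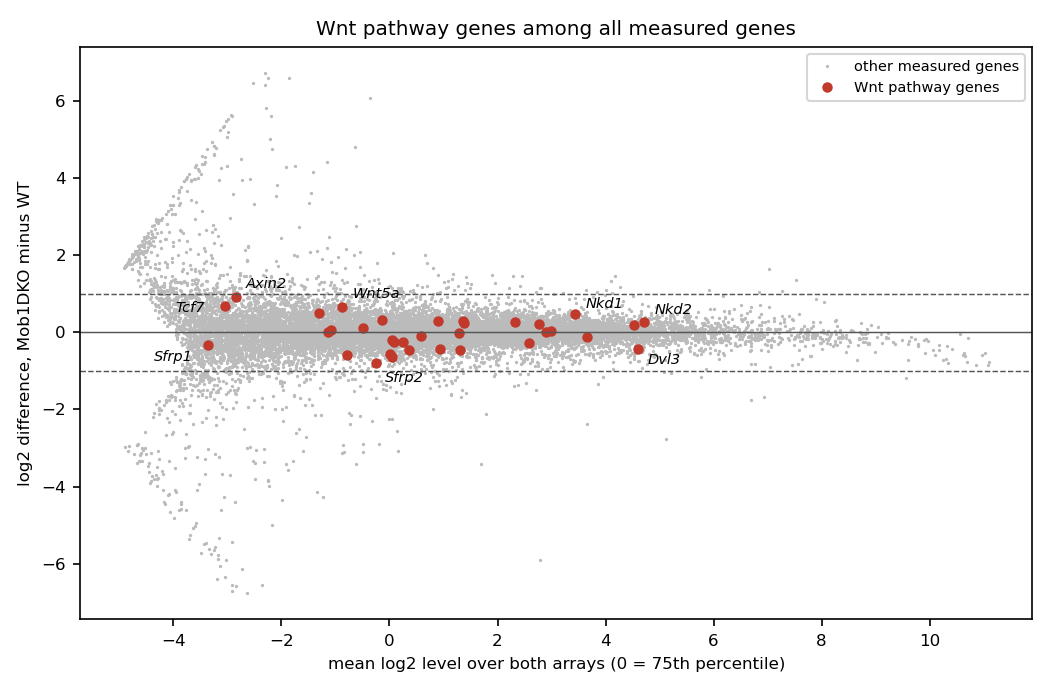
Log2 difference, Mob1DKO minus WT (y axis), against the mean log2 level over both arrays (x axis) for all 15099 genes measured on at least 1 array, with the 34 Wnt pathway genes in red and the 2-fold limits dashed. The Wnt pathway genes lie inside those limits at every level, and the spread of all genes widens toward faint signals.

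Further pathway genes were read from a second list of 105, of which 104 had a probe and 77 were measured. Of these 77, 2 were called higher and 0 lower, beside the 4.46% of all genes, and their median difference was −0.019. Apcdd1, a membrane antagonist and known beta-catenin target, was at −1.72 in Mob1DKO cells against −5.64 in WT cells, where its signal did not pass the background test, and so was at least 3.33-fold higher. Celsr3, a cadherin of planar cell polarity, was at −1.59 in Mob1DKO cells against −2.92 in WT cells, a difference of 1.33 (SD 0.48) or 2.52-fold. Each has 1 named probe and a faint signal on the WT array, and neither was called under the background correction.

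Among 11 measured genes widely used as beta-catenin targets, 3 differed by more than 0 and 8 by less, with a median of −0.25 and none called. Myc, a growth-promoting transcription factor, was at 3.58 in Mob1DKO cells against 3.10 in WT cells, a difference of 0.48 (SD 0.047). Ccnd1, the cyclin that drives entry into the cell cycle, and Cd44, a hyaluronan receptor, differed by −0.27 and −0.41. Sp5, a transcription factor induced by Wnt signals in embryos, was at 0.26 in Mob1DKO cells against 0.24 in WT cells, a difference of 0.021. The targets thus had no common direction.

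Of the other ligand and receptor genes, Wls, which carries Wnt ligands to the cell surface, differed by 0.084 (SD 0.067), and Notum, an enzyme that strips their lipid, was at 3.21 in Mob1DKO cells against 3.61 in WT cells, a difference of −0.41. Wnt2, Wnt3, Ror1 and Ror2 were well above background on neither array, and Rspo3 was so in Mob1DKO cells alone, with no bound above 1-fold. Planar cell polarity genes held 8 differences above 0 and 5 below among 13 measured.

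**Figure D4:**
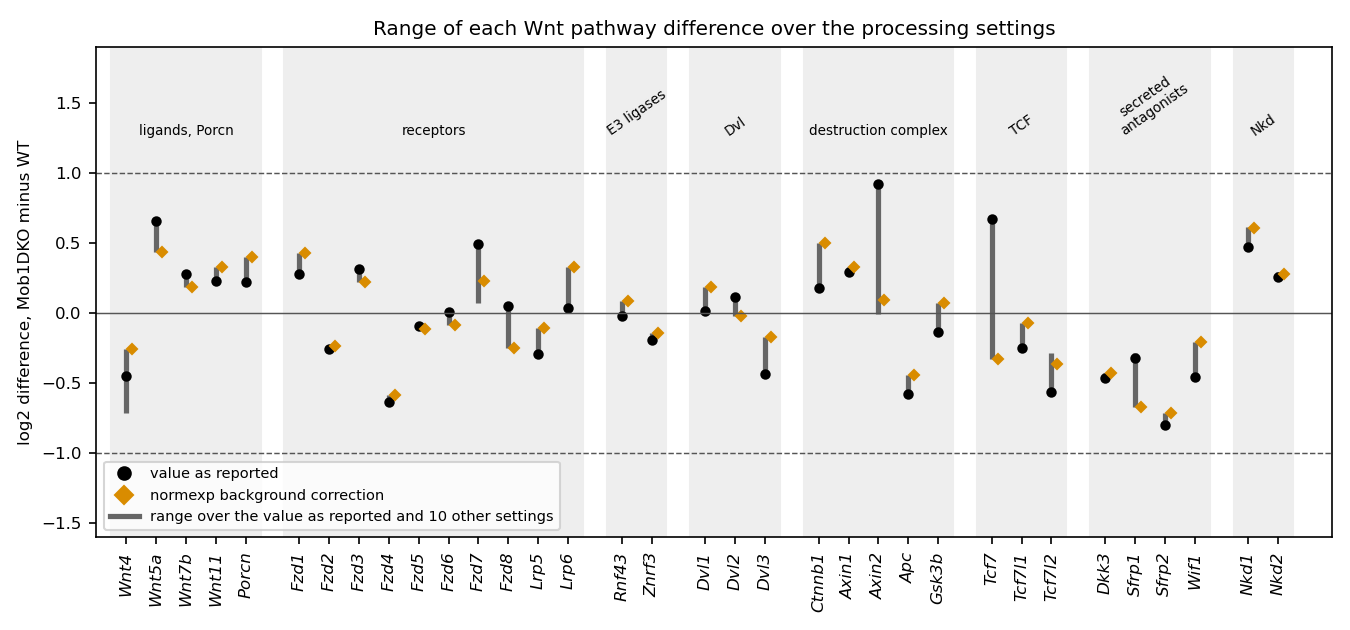
Log2 difference, Mob1DKO minus WT (y axis), of the 34 measured Wnt pathway genes by role (x axis), as reported (black points), under the normexp background correction (orange diamonds) and as the range over the reported value and 10 other settings (grey bars). No bar reaches the dashed 2-fold limits, and the bars of the faint genes Axin2 and Tcf7 cross 0.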

How the data were processed

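Cy3-labelled cRNA was made from total RNA and hybridised, with 1 array per group, per the labels' protocols. The deposited scanner files hold intensity values per spot, extracted with Feature Extraction 10.7.1.1 on a grid of build mm9, per the file headers, whereas version 9.5.1.1 is named in the submitters' processing notes. The processed signal used here is background-subtracted within the array and not normalized between arrays. The deposited value table holds intensity on a linear scale, and 99.8% of Mob1DKO and 99.7% of WT values lay within 1% of a quantile normalization of the processed signal. Its column medians were 27.3 each, and each column kept the direction of its own array.

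Spots of a probe were averaged, control spots left out, and log2 levels taken relative to each array's 75th percentile (Python 3.11.15, pandas 2.3.3). Of 28685 probes with a RefSeq accession, 27235 were named through the RefSeq gene table of GRCm38.p6, used only for names. A gene's value is that of its brightest probe well above background on at least 1 array, and every Wnt pathway gene is named. The bound for a gene above background on 1 array sets its level against the higher of the dim level and the array's lowest level that passes the filter, −4.10 for Mob1DKO and −3.45 for WT. The calling step was checked on simulated data, for genes above background on both arrays and with planted differences well past the limit. The check used the same noise at every level, so it did not cover the bound or the larger error of faint signals. Alternatives covered scaling, loess (span 0.3), normexp with limma 3.58.1 (offset 50, on the median spot signal because the files give no mean), the value table, filters, the choice of probe and the calling rule. The members and lists were chosen with earlier results of these data known. 1 T cell marker is not reported here.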

Additional observations from a re-analysis of the deposited data

How the results depend on the processing

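No paired analysis was possible because each group holds 1 array, and no array could be left out. Over 10 other settings, no Wnt pathway gene was called except Lgr6, at −1.45 without a filter on background (1 lower), though both of its signals were dim. Their median difference of 0.010 ran from −0.0485 under normexp to 0.013, and was −0.0347 without a filter. The second list's median of −0.019 was 0.031 under normexp, 0.033 with the median of the probes and −0.053 without a filter. Only 7 of the 10 settings can change a single gene's difference. Under normexp 17 of the 34 genes moved by more than their technical SD, among them Ctnnb1 (0.50), Dvl3 (−0.17), Lrp5 (−0.10) and Lrp6 (0.33), and 5 did with the median of the probes, while none did under the other 5. The sign was kept under the 7 by 26 genes and turned under at least 1 by 8, among them Tcf7 (−0.33 under normexp) and Axin2 (−0.0074 as the median of its probes, 0.092 under normexp). In the second list, the 2 genes called higher became 0 under normexp, 1 among genes above background on both arrays, 5 without a filter and 4 by the measured 2-fold difference on the brighter array, and the 0 called lower became 7 without a filter. Over all genes, 674 were called, beside 251 under normexp, 372 on both arrays, 2009 without a filter and 1011 by the measured difference. The causes were not tested, except that filters change which genes enter. Faint signal limits Axin2, Tcf7, Sfrp1, Fzd7 and the 7 undetected genes.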

Other observations

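Some other genes of the second list differed by at least 1.52-fold without being called, and were singled out after their values were seen. Differences of at least 0.5 in size, called or not, were seen for 14 of the 77 measured genes of that list (18.2%). The share was 18.8% for all measured genes, so differences of this size are no result about the pathway. Bcl9, a cofactor that tethers Pygopus to beta-catenin, was at −2.43 in Mob1DKO cells against −1.52 in WT cells, a difference of −0.91 (technical SD 0.25). Vangl2, a core planar polarity protein, was at 1.14 in Mob1DKO cells against 1.996 in WT cells, a difference of −0.86 (SD 0.11), and Ptk7, a receptor of the same branch, differed by −0.67 (SD 0.11). Tle5, a short member of the Groucho family, was at 7.15 in Mob1DKO cells against 7.96 in WT cells, a difference of −0.81 (SD 0.067). Fuz, a ciliogenesis and planar polarity effector, and Ep300, a coactivator of beta-catenin, differed by 0.67 (SD 0.25) and 0.61 (SD 0.11). Wnt6 was detected above background in Mob1DKO cells alone and was at least 1.79-fold higher there.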
